A study of Mus musculus with 6 samples.

Results

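The complement system was examined in the livers of male mouse pups at postnatal day 6, in which a human *SRY* transgene either had been activated (hSRY-ON) or had not (hSRY-OFF). The members were 31 complement genes fixed by name, and every probe whose symbol in the deposited array table was one of these names was taken. This gave 36 probes of 30 genes, out of 25697 probes and 18138 symbols in the table. *Clu*, encoding clusterin, was not analysed here. RNA of 3 pups per group was hybridised to Illumina MouseRef-8 bead arrays, and all pups had the FVB/N background (FVB in the labels). hSRY-ON pups carried a recombined *Signalox-hSRY* cassette, a single insertion at the *H11* locus, in which the ubiquitous *CAG* promoter drove FLAG-tagged human *SRY* together with *EGFP*. Recombination took place in the early embryo through Cre protein that a *Ddx4-Cre* mother left in the oocyte, and the hSRY-ON pups chosen for the arrays did not themselves carry *Ddx4-Cre*. hSRY-OFF is the name given in the study's methods to *Signalox-hSRY* mice without recombination, in which the same promoter drives *DsRed2*. The paper also describes the array comparison as one with age-matched control pups, and it defines control littermates as lacking *Signalox-hSRY*. Whether the array controls carried the *DsRed2* cassette is therefore not certain. In either case the groups also differed in their fluorescent reporter, and its part in the results cannot be told apart from that of *SRY*. According to the paper, hSRY-ON pups also suckled little, grew more slowly than littermate controls and had fatty livers. The part of feeding, growth or liver fat in the differences was not tested. FVB mice are known to carry a null allele of *Hc*, the gene of complement component C5, so the terminal pathway of both groups lacks a working C5 protein.

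Complement is a cascade of plasma proteins, most of them made by hepatocytes, that marks and destroys microbes. The classical pathway starts when C1q binds antibody and switches on the proteases C1r and C1s. The lectin pathway starts when mannose-binding lectins or ficolins bind sugars and switch on the MASP proteases, and both pathways cut C4 and C2 to build an enzyme that cuts C3. The alternative pathway amplifies C3 cleavage with factor B, factor D and properdin. The terminal components C5 to C9 then assemble into a pore in the target membrane, while inhibitors such as C4b-binding protein, factor I, C1 inhibitor and CD59 protect the host.

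In hSRY-ON livers the genes of the mannose-binding lectins, the MASP proteases and the terminal pore were lower, whereas the probes for ficolin A, C1q, C3 and C1 inhibitor did not pass the test. Of the 36 probes, 29 probes of 24 genes were detected on at least 3 of the 6 arrays and were tested, and 19 probes of 15 genes fell. Not a single member probe was called higher (0 of 29 with limma at an adjusted p under 0.05, and with every alternative that was run), and all 19 probes with an unadjusted p under 0.05 were those called lower. The share called lower was 65.5% of the tested member probes, against 17.3% of all 10734 tested probes. Over all tested probes 15.8% were called higher and 33.1% were called in either direction. The 3 hSRY-ON values lay below all 3 hSRY-OFF values at 20 of the 29 member probes, where 24.6% of all tested probes did so. They lay above at 1 tested member probe, against 25.4% of all tested probes. The median log2 difference, hSRY-ON minus hSRY-OFF, was -0.96 over the members and 0.02 over all tested probes. RNA from whole liver was measured, so fewer cells of a type and less RNA per cell cannot be told apart.

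The lectin pathway was lower at 6 of its 7 tested probes. *Mbl1*, encoding mannose-binding lectin A, had normalized log2 intensities of 12.34, 12.28 and 12.34 in hSRY-OFF livers and of 9.0, 8.36 and 9.88 in hSRY-ON livers. The hSRY-OFF values were nearly identical, and each hSRY-ON value lay far below them. The fitted difference was -3.24 ± 0.34 on the log2 scale (SE, n = 3 each, limma adjusted p 0.000758), which is 9.45-fold lower. This was the largest fall of any tested member over all 6 arrays, but without hSRY-ON replicate 2 it was -2.89, behind *C4bp* (-3.13) and *Mbl2* (-3.00). *Mbl2*, encoding mannose-binding lectin C, went from 11.75, 11.92 and 12.01 to 8.85, 9.98 and 8.96. Its groups were likewise well apart, with a difference of -2.63 ± 0.29 (SE, adjusted p 0.000893, 6.20-fold lower). The hSRY-ON livers did not rank alike at both lectins, since replicate 2 was the lowest of the group for *Mbl1* and the highest for *Mbl2*.

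*Mbl1* and *Mbl2* lie on different chromosomes. Their upstream sequences are shown because both genes fell so far and because they share a stretch of bases upstream of the start site. Each line gives the 250 bases before the annotated start, from RefSeq on the gene's own strand (GRCm38.p6, chr14:41151206-41151455 and chr19:30232678-30232927, both on the plus strand). The capitals mark the longest run of bases that both sequences share.
Mbl1: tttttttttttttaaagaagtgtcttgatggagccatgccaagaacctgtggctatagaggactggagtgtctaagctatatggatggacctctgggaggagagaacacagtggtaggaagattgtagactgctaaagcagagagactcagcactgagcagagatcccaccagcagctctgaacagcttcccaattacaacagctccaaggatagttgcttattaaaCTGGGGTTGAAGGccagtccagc
Mbl2: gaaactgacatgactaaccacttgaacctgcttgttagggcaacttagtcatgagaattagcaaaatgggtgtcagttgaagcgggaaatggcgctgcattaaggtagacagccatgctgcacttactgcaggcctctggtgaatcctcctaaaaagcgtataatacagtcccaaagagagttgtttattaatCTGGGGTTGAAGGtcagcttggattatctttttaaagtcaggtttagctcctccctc
The shared run had 13 bases and began 23 bases before the start of *Mbl1* and 57 bases before that of *Mbl2*. It was found, on either strand, in 3 of the 32851 upstream sequences of this length in the table, the other one belonging to *Slc25a53*. The run was picked because *Mbl1* and *Mbl2* share it, so its presence in both was fixed by that choice. A shared run is a description of these letters and does not show that a factor binds there.

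The proteases that the lectins activate fell less and with little spread. *Masp1*, whose transcripts encode MASP-1 and, by splicing, MASP-3, had values of 11.04, 11.29 and 11.28 in hSRY-OFF and 9.47, 9.79 and 9.57 in hSRY-ON livers. The difference was -1.59 ± 0.14 (SE, adjusted p 0.000365). *Masp2* encodes the protease that cuts C4 and C2, and its best measured probe (ILMN_3101073) was at 12.15, 12.17 and 12.16 against 10.84, 10.91 and 10.81. All 3 *Masp2* probes fell by similar amounts, with differences of -1.31, -1.29 and -1.36, so the gene was 2.45-fold to 2.56-fold lower. *Fcna*, encoding ficolin A, which is made mainly by macrophages, was the exception among the lectin genes. It was at 12.38, 12.56 and 12.36 in hSRY-OFF and 12.45, 12.21 and 12.85 in hSRY-ON livers, and the groups overlapped. Its difference was 0.07 with a 95% interval of -0.36 to 0.49 (adjusted p 0.802), and its sign turned to -0.12 with median scaling and to -0.11 without hSRY-ON replicate 3.

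All 8 tested probes of the terminal pathway were lower, and all 6 of its genes had at least 1 of them. *C8g*, encoding the lipocalin-like gamma chain of C8, was at 13.36, 13.50 and 13.48 in hSRY-OFF and at 10.05, 10.41 and 11.07 in hSRY-ON livers. The lowest hSRY-OFF value was more than 2 log2 units above the highest hSRY-ON value, and the difference was -2.94 ± 0.25 (SE, adjusted p 0.000319, 7.67-fold lower). *C8b*, one of the pore-forming chains of C8, fell from 11.79, 11.85 and 11.92 to 9.56, 10.12 and 10.02, a difference of -1.96 ± 0.17 (SE, adjusted p 0.000351). Its partner chain *C8a* was at 7.67, 7.77 and 8.15 against 6.0, 5.93 and 6.63, a difference of -1.68 ± 0.22 (SE, adjusted p 0.00189). Genes of all 3 chains of C8 were thus more than 3-fold lower, although the size for the dim *C8a* probe rested on the background correction and was -0.85 without it (adjusted p 0.00175).

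*C9* encodes the subunit that polymerises into the wall of the pore. Its brightest probe (ILMN_2937375) was at 11.18, 11.53 and 11.15 in hSRY-OFF and 9.17, 9.02 and 9.03 in hSRY-ON livers. The hSRY-ON livers were almost alike here, and the difference of -2.22 ± 0.14 had the smallest adjusted p of all members (SE, limma adjusted p 0.00015). A dimmer *C9* probe (ILMN_2937379) differed by -0.81 (adjusted p 0.0302, and 0.0528 without background correction, when the difference was -0.32), and another (ILMN_2594846) was detected on 0 arrays. *C6*, which joins the complex after C5, was lower with both probes, by -1.19 ± 0.33 (ILMN_2798129, SE, adjusted p 0.0309) and -0.82 ± 0.23 (ILMN_1216720, SE, adjusted p 0.0331). The brighter probe was at 8.04, 8.40 and 8.08 against 6.93, 6.30 and 7.73, so the hSRY-ON values were widely spread but all below the hSRY-OFF values. *Hc* went from 7.64, 7.79 and 7.32 to 6.23, 7.15 and 6.45, a difference of -0.98 ± 0.25 (SE, adjusted p 0.0228). The groups did not overlap, but the gap between the nearest values was small. Without background correction the differences were -0.50 for *Hc* and -0.69 and -0.36 for *C6*, each still past the threshold.

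The calls of *C6*, of *Hc* and of the dimmer *C9* probe were the least secure of this arm. With arrays left out, *C6* was not past the threshold without any hSRY-OFF array or without hSRY-ON replicate 1 (adjusted p 0.0718 to 0.105 for ILMN_2798129 and 0.0752 to 0.108 for ILMN_1216720, and 0.0696 for the latter without hSRY-ON replicate 2). *Hc* was not past it without hSRY-OFF replicates 1 or 2 or hSRY-ON replicate 1 (0.0669 to 0.0855), nor was the dimmer *C9* probe without hSRY-OFF replicates 2 or 3 or hSRY-ON replicates 1 or 2 (0.0663 to 0.101). With the undetected probes added to the test, the adjusted p was 0.0689 and 0.0663 for these *C6* probes and 0.0602 for the dimmer *C9* probe. The *C8a*, *C8b*, *C8g* and brighter *C9* calls held with each array left out.

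**Figure D1:**
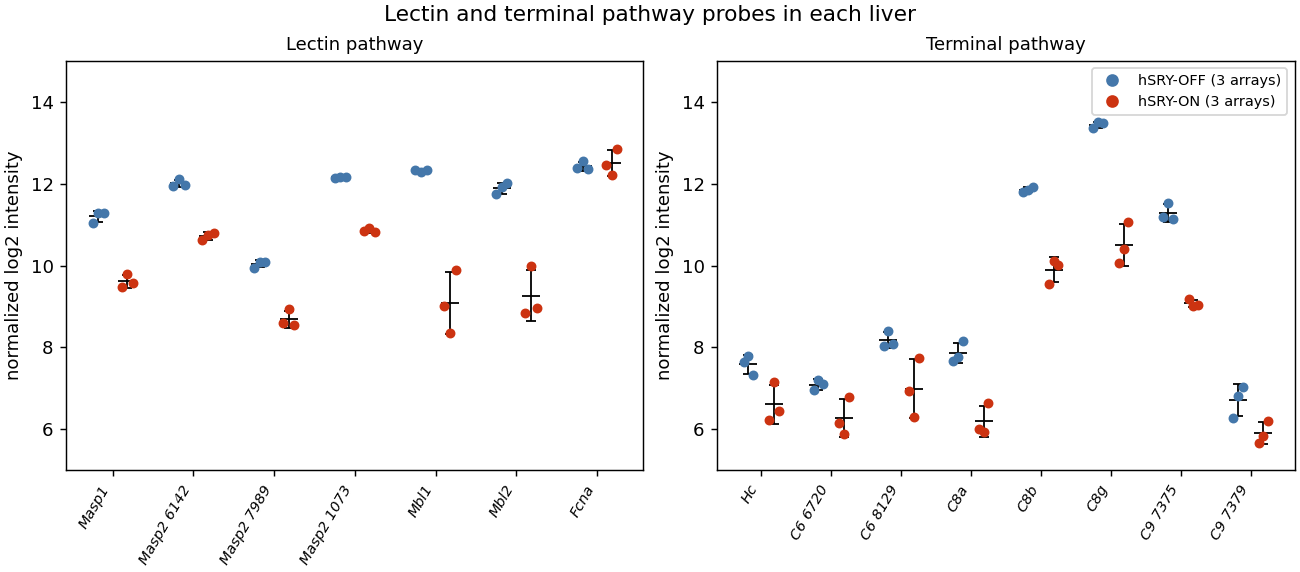
Normalized log2 intensity of each tested probe of the lectin (left) and terminal (right) pathways. Each point is 1 liver, and bars give the group mean and SD (n = 3); numbers after a name are the last digits of the probe identifier. Every probe except *Fcna* shows the 3 hSRY-ON livers below the 3 hSRY-OFF livers, and *Mbl1*, *Mbl2* and *C6* show the widest spread among hSRY-ON livers.

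Regulators that act in plasma were divided. *C4bp*, encoding the alpha chain of C4b-binding protein, which removes C4b from surfaces, had values of 9.77, 10.02 and 9.81 in hSRY-OFF and 6.51, 7.27 and 6.95 in hSRY-ON livers. The groups lay about as far apart as those of *C8g*, with a difference of -2.96 ± 0.20 (SE, adjusted p 0.000154, 7.76-fold lower). Without background correction this difference was -2.10. *Cfi*, encoding factor I, the protease that destroys C3b and C4b with the help of C4b-binding protein, went from 13.88, 13.91 and 13.82 to 12.66, 12.97 and 12.75. It was 2.11-fold lower, with a difference of -1.07 ± 0.13 (SE, adjusted p 0.00116). *Serping1*, encoding the C1 inhibitor that blocks C1r, C1s and the MASPs, was at 14.18, 14.16 and 13.95 against 14.30, 14.13 and 13.96. The groups overlapped almost completely, and the difference of 0.03 had a 95% interval of -0.29 to 0.35 (adjusted p 0.879). Its sign changed with median scaling (-0.02), without hSRY-OFF replicate 3 (-0.04) and without hSRY-ON replicate 1 (-0.05).

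The membrane regulators among the members gave no called difference. *Cd59a*, whose product keeps C9 from polymerising on the body's own cells, was at 12.75, 12.73 and 12.75 in hSRY-OFF and 12.86, 12.86 and 12.77 in hSRY-ON livers. This was the only tested member probe whose hSRY-ON values all lay above the hSRY-OFF values. However, its difference was 0.09 (95% interval -0.16 to 0.34, limma adjusted p 0.567) and became -0.11 with median scaling. *Cd55*, encoding decay-accelerating factor, rose above background on only 1 array per group, too few for a test. *Cd46* was detected on 0 arrays.

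The classical pathway moved little. *C1qa*, *C1qb* and *C1qc*, which encode the 3 chains of C1q and are expressed by macrophages rather than hepatocytes, had overlapping groups and differences of -0.19, -0.11 and -0.20. Their 95% intervals were -0.53 to 0.16, -0.42 to 0.20 and -0.50 to 0.11, so a fall of the size seen at *Mbl1* or *C8g* lay outside each of them. *C4b* differed by -0.26, with an interval of -0.65 to 0.14 (adjusted p 0.273). The close homologue *C4a* was detected on 0 arrays, and whether the *C4b* probe also binds its transcript was not tested. *C2*, encoding the protease that pairs with C4b, was lower. It went from 12.51, 12.47 and 12.45 to 11.69, 11.87 and 11.97, a difference of -0.63 ± 0.12 (SE, adjusted p 0.00776, 1.55-fold lower).

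*C1s* had probes that differed in their call. The probe ILMN_1257046 was at 9.79, 9.96 and 9.66 against 8.92, 9.37 and 9.0, a difference of -0.70 ± 0.16 (SE, adjusted p 0.0143). That call was lost without hSRY-OFF replicate 1 (adjusted p 0.0549) or replicate 2 (0.0601). The other probe (ILMN_2667269) had overlapping groups and a difference of -0.29 (adjusted p 0.256). *C1r*, listed in RefSeq as *C1ra*, was detected on 0 arrays, and its level was not analysed further.

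At the level of C3 and the alternative pathway, factor B stood alone among 3 tested genes. *C3*, on whose cleavage all pathways converge, was at 13.97, 14.01 and 14.09 in hSRY-OFF and 13.91, 13.91 and 13.81 in hSRY-ON livers. The groups just failed to overlap, but the difference was only -0.15 (95% interval -0.41 to 0.11, adjusted p 0.328). *Cfb*, encoding factor B, the protease of the alternative pathway, went from 7.94, 8.31 and 8.07 to 7.13, 7.01 and 7.30. Its difference was -0.96 ± 0.15 (SE, adjusted p 0.00312, 1.95-fold lower), and -0.59 without background correction. *Cfp*, encoding properdin, which myeloid cells make and which stabilises the C3-cutting enzyme, had overlapping groups and a difference of -0.07 (95% interval -0.42 to 0.29), with a sign that turned to 0.04 without hSRY-ON replicate 1. *Cfd*, encoding factor D, a product of fat cells, was detected on 0 arrays, as were all 6 adipocyte markers examined.

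**Figure D2:**
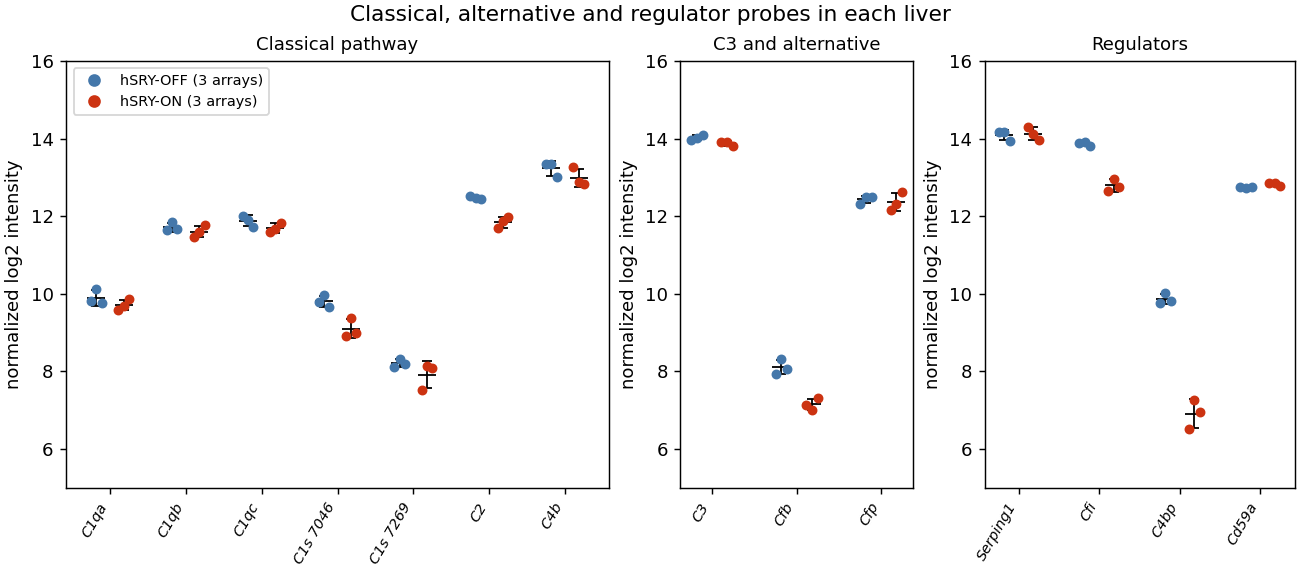
Normalized log2 intensity of each tested probe of the classical pathway, of C3 and the alternative pathway, and of the regulators. Each point is 1 liver, and bars give the group mean and SD (n = 3). Clear separation is seen at *C4bp*, *Cfi*, *Cfb*, *C2* and 1 of the *C1s* probes, while *C1qa*, *C1qb*, *C1qc*, *C4b*, *Cfp* and *Serping1* overlap.

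Set side by side, the arms differed in how many probes were called and by how much. The median log2 difference was -1.43 in the terminal pathway (range -2.94 to -0.81) and -1.36 in the lectin pathway (range -3.24 to 0.07). It was -0.52 among the 4 regulator probes, -0.26 in the classical pathway (range -0.70 to -0.11) and -0.15 in the alternative pathway (range -0.96 to -0.07). The order of the terminal and lectin medians was not stable. It rested in part on the dim terminal probes, since without background correction the medians were -0.77 and -1.25. With an offset of 50 they were -1.15 and -1.29. The order also turned without hSRY-ON replicate 2 (-1.40 and -1.48). Falls of at least 2-fold that passed the threshold were found in 11 genes, 5 of them terminal, 4 lectin and 2 regulators, and in 0 genes of the classical and alternative groups. Without background correction they were found in 9 genes, 3 of them terminal, because *C8a* and *C6* were then less than 2-fold lower, and *Cfb* of the alternative group passed 2-fold in 3 of the alternatives (median scaling, and without hSRY-OFF replicate 1 or hSRY-ON replicate 3, both -1.04). C4 and C2 also serve the lectin pathway, and C3 serves all of them, so the grouping places shared components in 1 arm each. Whether the arms differed from each other was not tested.

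**Figure D3:**
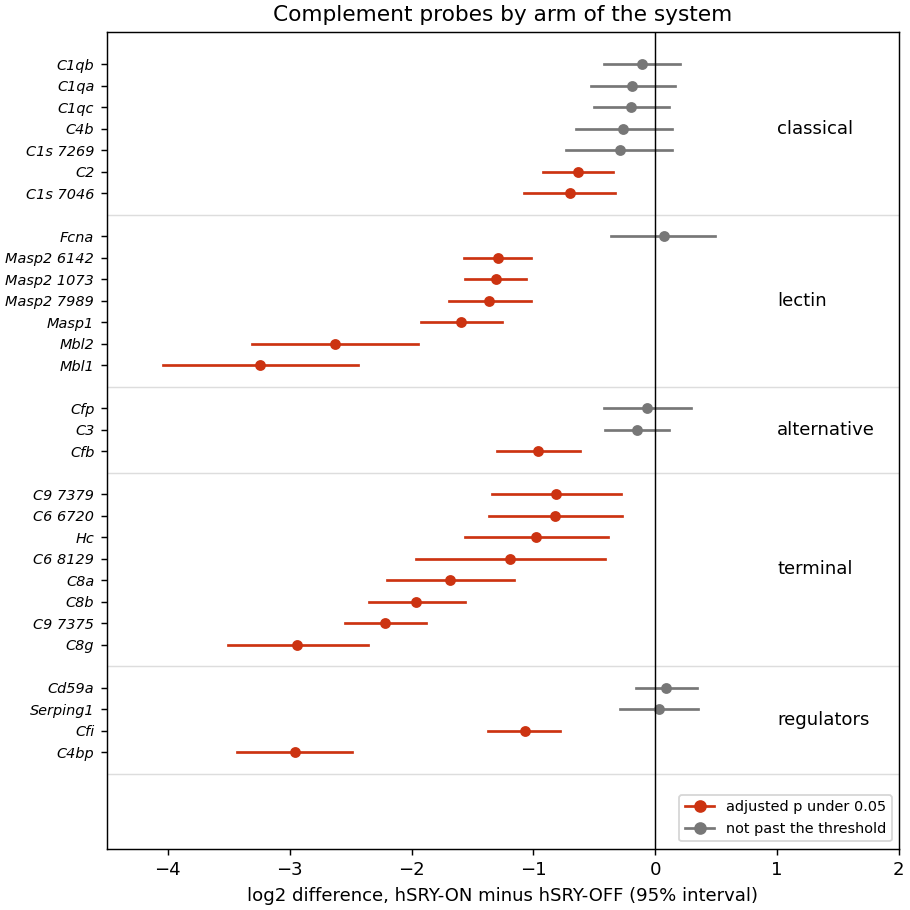
Log2 difference of each tested complement probe (x axis, hSRY-ON minus hSRY-OFF, with its 95% interval from the limma fit), grouped by arm. Red marks probes with an adjusted p under 0.05. The terminal and lectin probes other than *Fcna* lie at -0.81 or further left, the classical probes between -0.70 and -0.11, and the regulators split into *C4bp* and *Cfi* on the left and *Serping1* and *Cd59a* near 0.

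The receptors for the split products could not be compared, since *C3ar1* and *C5ar1*, encoding the receptors of C3a and C5a, were detected on 0 arrays. Other complement genes outside the member list were examined in the same way, and 15 probes of 12 symbols were tested. Of these, 8 probes were lower and 1 was higher, with a median difference of -0.52. Over all tested probes 17.3% were called lower and 15.8% higher. Both *C1rl* probes, for a C1r-like protease, were lower, by -0.88 and -0.77. Further lower genes were *Vtn* (-0.62), encoding vitronectin, which binds nascent terminal complexes, the C3b receptor gene *Vsig4* of resident macrophages (-0.63), the membrane regulator *Crry* (now *Cr1l*, -0.46 and -0.52) and *Cpn1* (-0.49), for the carboxypeptidase that inactivates C3a and C5a. *Cpn2*, encoding the partner chain of *Cpn1*, had the largest fall of this list. It differed by -1.01 ± 0.20 (SE, adjusted p 0.00879) and was above background in 3 hSRY-OFF livers but in 1 hSRY-ON liver. The higher probe was *Cd93* (0.71, adjusted p 0.007), a surface protein of endothelial and myeloid cells.

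Marker genes of liver cell types were read beside these results. Their counts stand against 17.3% of all tested probes called lower and 15.8% called higher. Hepatocyte markers defined the tissue on every array: *Ahsg*, *Apoa1*, *Hpx* and *Trf* had at least 1 probe with a mean log2 intensity of 14.98 or more in both groups, while the *Alb* probe was dim (7.94 in hSRY-OFF, 6.82 in hSRY-ON). Of 15 tested hepatocyte probes 5 were lower and 0 higher, with a median difference of -0.24. Their summed linear intensity was 305000 to 307000 in the hSRY-OFF group and 268000 to 281000 in the hSRY-ON group. Nearly all of this sum came from the bright *Ahsg*, *Apoa1*, *Hpx*, *Trf*, *Serpina1b* and *Ttr* probes. The dimmer *Alb*, *Serpina1a* and *Serpina1c* probes added little to it. The lower probes were those of *Alb* (-1.11), *Ttr* (-0.46), *Serpina1a* (-0.91 and -1.11) and *Serpina1c* (-1.30), and the *Serpina1* genes are near-identical copies that a probe may not separate. The brightest probes of *Hpx*, *Ahsg*, *Trf* and *Serpina1b* read close to the highest intensity of their arrays, where a difference can be compressed. At their dimmer probes *Hpx* differed by -0.24, *Ahsg* by -0.04 and *Serpina1b* by -0.33, and none was called. The groups of that *Serpina1b* probe did not overlap (limma adjusted p 0.0544). The part of hepatocyte number or output in the falls of complement genes was not tested.

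Macrophage markers included 6 lower and 1 higher probe among 16 tested, with a median of -0.56. The Kupffer cell lectin *Clec4f* was lower by -0.88 at its bright probe and at least 1.14-fold at a probe not detected in hSRY-ON livers, *Emr1* (now *Adgre1*) by -0.75 at 1 of its 2 tested probes, and *Aif1* by -1.61 and -1.45. *Marco* (-0.15) was not called, *Csf1r* was called higher at 1 of its 2 probes (0.48), and 4 symbols of the list were detected on 0 arrays, *Cd5l* and *Cd163* among them. The summed intensity of the macrophage list was 36600 to 39000 in the hSRY-OFF group and 26200 to 46300 in the hSRY-ON group. Most of this sum came from *Slc40a1*, *Lyz* and *Lyz2* (mean log2 13.48, 13.26 and 13.00 in hSRY-OFF livers), and none of these bright probes was called. *Lyz* and *Lyz2* were highest in hSRY-ON replicate 3 (13.99 and 13.63). The sum therefore says little about *Clec4f*, *Emr1* or *Aif1*. The macrophage-expressed members *C1qa*, *C1qb*, *C1qc*, *Fcna* and *Cfp* thus had small differences beside a marker list that was lower at several genes. The neutrophil list had 0 of 12 probes called by limma (1 with an unadjusted p under 0.05), and its summed level ranged from 42400 to 114000 among hSRY-ON livers, highest in replicate 3, against 53300 to 62600 in hSRY-OFF livers. Without that array 19 member probes were called lower, with some falls larger (*Mbl1* -3.65, *C6* -1.56 at ILMN_2798129) and some smaller (*Mbl2* -2.49, *Hc* -0.90), and the part of these cells was not tested. Erythroid probes were higher at 2 of 8, with sums of 77600 to 106000 and 99200 to 118000. *Hba-a1* read at or near the highest intensity of every array (log2 15.5). It therefore added about the same amount to each sum and could hardly show a difference. Of the 10 endothelial probes 3 were higher and 1 lower, with sums of 9450 to 11400 in the hSRY-OFF group and 8510 to 10800 in the hSRY-ON group. Stellate and matrix probes were higher at 6 and lower at 2 of 13, with sums of 8520 to 9580 and 19400 to 21400. The higher probes were those of *Acta2* (2.45 to 3.12), *Tagln* (2.56) and *Des* (0.77). *Lrat* (-1.66) and *Lum* (-1.01) were lower, and *Dcn*, *Col1a1*, *Col3a1* and *Pdgfrb* were not called. Most of the rise in the sum came from *Acta2*, so it does not describe the list as a whole. The part of any of these cell types was not tested.

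**Figure D4:**
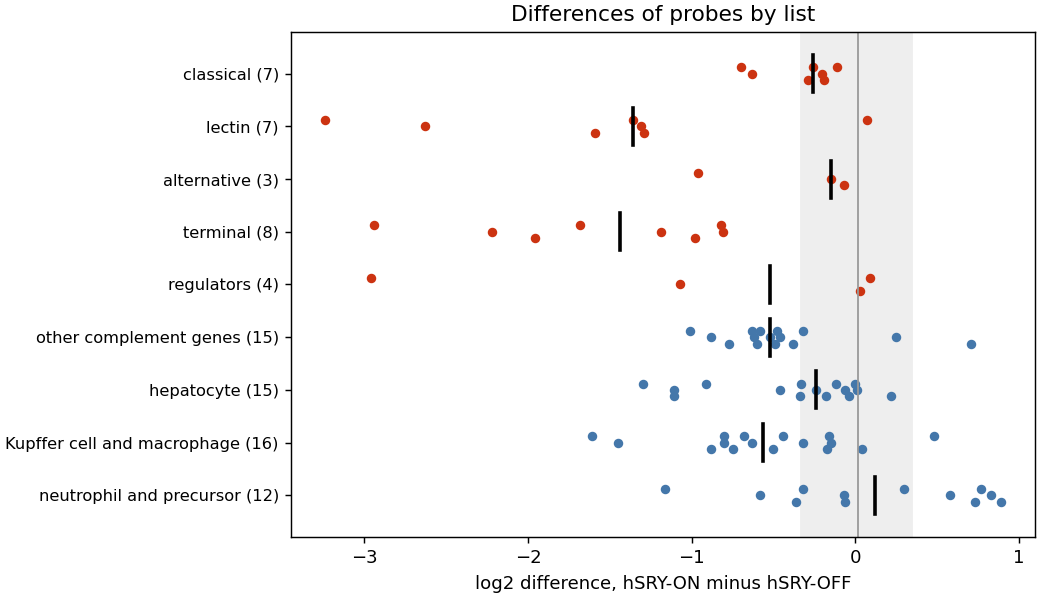
Log2 difference (x axis, hSRY-ON minus hSRY-OFF) of each tested probe, by complement arm (red) and by comparison list (blue), with the number of probes in parentheses. Black bars are medians, the grey band spans the 25th to 75th percentile of all tested probes (-0.33 to 0.35) and the grey line their median (0.02). Terminal and lectin medians lie furthest left, and *Vsig4* appears in both the other complement and the macrophage list.

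Spread among livers was larger in the hSRY-ON group. The median SD of the tested member probes was 0.13 in the hSRY-OFF group and 0.24 in the hSRY-ON group, compared with 0.14 and 0.21 over all tested probes. *Mbl1* (SD 0.76), *C6* (0.72), *Mbl2* (0.62) and *C8g* (0.52) varied most among hSRY-ON livers, while *C9* (0.08) and *Masp2* (0.05) at their best measured probes hardly varied. Of the 19 called member probes, 11 were lowest in hSRY-ON replicate 1, 6 in replicate 2 and 2 in replicate 3.

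Several members are neighbours in the genome. In RefSeq *C8b* and *C8a* are neighbours on chromosome 4, and both were more than 3-fold lower. *Cfb* and *C2* are neighbours on chromosome 17 and were lower by -0.96 and -0.63, while *C4b*, 5 genes away from *Cfb*, was not called. The genes of the 3 C1q chains lie side by side on chromosome 4, and none of them was called. *C4bp* and *Cd55* have 1 gene between them on chromosome 1, and only *C4bp* was detected well enough to be tested.

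The 250 bases before the start were searched on both strands for motifs of liver factors in the 23 of 30 member genes that the RefSeq promoter table held. The core of the HNF1 site, GTTAAT, was present in 4 of 11 genes called lower (*C4bp*, *C8a*, *C8b* and *Hc*) and in 1 of 6 tested genes that were not called (*Cfp*), against 6.43% of all 32851 sequences. It is shown for 3 of these 4 lower genes, with the match in capitals. *Mbl1*, *C8g*, *Mbl2* and *C9*, which were also among the largest falls, held 0 matches of it in this window. *C4bp* (chr1:130661619-130661868) and *C8a* (chr4:104876399-104876648) are on the minus strand and *C8b* (chr4:104766067-104766316) on the plus strand of GRCm38.p6.
C4bp: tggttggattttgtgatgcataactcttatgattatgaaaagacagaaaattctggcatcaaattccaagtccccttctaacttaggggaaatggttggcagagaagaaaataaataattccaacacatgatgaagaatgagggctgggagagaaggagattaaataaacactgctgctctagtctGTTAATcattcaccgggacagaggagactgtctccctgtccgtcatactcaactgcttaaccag
C8a: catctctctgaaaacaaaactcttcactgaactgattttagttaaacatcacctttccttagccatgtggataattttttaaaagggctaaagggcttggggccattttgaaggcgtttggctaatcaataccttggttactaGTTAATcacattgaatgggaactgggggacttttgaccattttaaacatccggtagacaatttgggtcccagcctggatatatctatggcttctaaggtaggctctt
C8b: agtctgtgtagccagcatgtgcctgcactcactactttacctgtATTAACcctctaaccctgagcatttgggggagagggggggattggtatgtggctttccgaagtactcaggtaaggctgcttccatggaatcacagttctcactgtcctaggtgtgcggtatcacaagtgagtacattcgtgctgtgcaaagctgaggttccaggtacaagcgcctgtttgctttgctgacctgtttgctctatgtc
The match began 64 bases before the start in *C4bp*, 107 in *C8a* and 206 in *C8b*, where it lay on the opposite strand. The C/EBP motif TTNNGCAA was present in 2 of the 11 and 1 of the 6 (9.56% of all), the STAT motif TTCNNNGAA in 2 and 0 (7.02%), and the HNF4 motif CAAAGNCCA in 2 and 0 (1.70%). The FOXA motif TGTTTAC was present in 0 of both (3.17%). A gene was counted if any of its upstream sequences held the motif, whereas the percentages are per sequence, so these are unlike measures. Both genes with the HNF4 motif, *C1s* and *C8g*, had more than 1 sequence, and not all of them matched. The same holds for *C1s* at the C/EBP motif. No matches of different motifs overlapped in the members. The sequences of *Mbl1* and *Mbl2* printed above held 0 of these 5 motifs, which says only that these letters are absent from this window.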

How the data were processed

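The authors measured liver RNA from 3 male pups per group, described in the study's methods as biological triplicates, on Illumina MouseRef-8 v2.0 arrays, and other organs were not analysed here. The deposited table held non-normalized probe intensities and, for each array, a detection p-value for each probe, and the scanner software is not given in the sources used here. From these, intensities were background-corrected with limma 3.58.1 in R 4.3.3 (nec, normexp with the background inferred from detection p-values, offset 16), quantile normalized and log2 transformed. A probe was tested if its detection p was below 0.01 on 3 or more of the 6 arrays. Groups came from the sample labels, and each probe was fitted with lmFit and eBayes with Benjamini-Hochberg adjustment over all tested probes and a threshold of 0.05. The submitters' processing notes name limma, and the study's methods name TCC, a package for count data, which was not applied to intensities. Probes of 1 gene were kept apart, and a gene was called lower if any of its probes was. Between 40.2% and 41.9% of probes were detected per array, and the number of arrays limits the precision, since an exact permutation test of 3 against 3 cannot go below 0.1.

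Every member probe was reported, and other genes were named from fixed lists of further complement genes and liver cell type markers. Some complement genes are not reported here. The members and lists were chosen with earlier results of these data known. Array symbols were matched by name, and *C1r* and *C1s* are *C1ra* and *C1s1* in RefSeq. Upstream sequences came from a RefSeq table on GRCm38.p6. The script was tested on simulated data. Alternatives changed the background correction, the normalization, the detection filter, the summary per gene, array weights, the replicate block and the arrays included.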

Additional observations from a re-analysis of the deposited data

How the results depend on the processing

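The count of member probes called lower, 19, was 18 without background correction, where 1885 of all 10734 probes were lower. It was 16 with no detection filter (36 probes tested), against 1778 of all 25697 probes. With 1 value per symbol it was 15 of 24, against 1441 of all 8225 symbols. With single arrays left out, the count ranged from 14 (without hSRY-OFF replicate 2) to 19 (without hSRY-ON replicate 3). Over all tested probes 1009 of 10445 and 2125 of 10494 were lower in these 2 settings. In each of the settings above, 0 member probes were higher. Of the 19 called probes, 14 kept their call in every setting. Signs turned only at probes that were not called. With median scaling *Fcna* was at -0.12, *Serping1* at -0.02 and *Cd59a* at -0.11. With arrays left out one at a time, *Fcna* ranged from -0.11 to 0.22, *Serping1* from -0.05 to 0.11 and *Cfp* from -0.19 to 0.04. *Fcna* was at -0.11 without hSRY-ON replicate 3, *Serping1* at -0.04 without hSRY-OFF replicate 3 and at -0.05 without hSRY-ON replicate 1, and *Cfp* at 0.04 without hSRY-ON replicate 1. Over all tested probes, 1700 were higher and 1854 lower, and leaving out hSRY-OFF replicate 1 gave 856 and 965, leaving out replicate 2 of that group 950 and 1009. The fold size of dim probes depends on the background correction, and probes near background limit what can be said of *Hc*, *C6* and the receptors.

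The groups share replicate numbers, but the labels do not say that a number pairs pups, and the deviations of same-numbered arrays from their group means correlated at 0.02, 0.10 and 0.05. With the replicate block 19 member probes were lower, and 1565 probes were higher and 1645 lower over all.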
